A study of Mus musculus with 24 samples.

Results

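The 50 genes followed here act in the G1-S transition and in DNA replication, and they were measured in cerebellar RNA from 24 neonatal mice. All 50 members were found by gene symbol in the deposited table of 55416 gene rows, each in exactly 1 row, and all 50 had enough counts to be tested. The 12 Ethanol animals were C57BL/6J pups gavaged with ethanol at 4 g/kg each day, mixed into 20% intralipid, and the 12 Vehicle animals, the study's Control, received intralipid with water in place of ethanol. Dosing began on postnatal day 4 (P4), and the cerebellum was taken 24 hours after the last dose, on P5 or P6, from 6 litters with 1 male and 1 female per treatment and litter. In the labels the tissue is given only as brain, and each animal has a treatment and a number without age, sex or litter, so every comparison is 12 Ethanol against 12 Vehicle animals over both days. Sorted by number, the animals form 6 runs of 4, with 2 Ethanol and 2 Vehicle animals in each, and no source used here ties a run to a litter or a day.

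A cell that leaves G1 first loads the ring-shaped MCM helicase onto origins with the help of ORC, CDC6 and CDT1. The kinases CDK2 with cyclin E and CDC7 with DBF4 then switch the helicase on together with CDC45 and the GINS complex, and the polymerases copy both strands while ribonucleotide reductase supplies deoxynucleotides. Most of these genes are transcribed as a wave under the E2F factors. In the neonatal cerebellum the main dividing population is the granule cell precursors of the external granular layer, which expand after birth under Sonic hedgehog from Purkinje cells, and glial and interneuron progenitors also divide. Because whole tissue was extracted, fewer cells of a type and less RNA per cell cannot be told apart.

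The mean over the 50 genes differed between Ethanol and Vehicle animals by -0.03 on the log2 scale (SE 0.04), while 4 single genes were higher in Ethanol animals and 2 were lower. The 4 that rose were Atad2, a chromatin ATPase that works with E2F and MYC, E2f8, a repressor that closes the E2F wave, Ccne2, which encodes cyclin E2, and Cdc7, the kinase that fires origins. The 2 that fell were Rrm1, the large subunit of ribonucleotide reductase, and Rpa1, the large subunit of the single-strand DNA binding complex. The test was edgeR's quasi-likelihood test with Benjamini-Hochberg adjustment over all 17736 genes tested, at an adjusted p of 0.05. Of the 50 members 6 passed, 12%, beside 14.9% of all genes tested, and 44 did not pass. By direction, 4 of 50 were higher beside 9.07% of all genes, and 2 of 50 were lower beside 5.8% of all genes. With upper-quartile in place of TMM scaling, 49.6% of all genes that passed were higher, against 61.0% with TMM. Among the members 4 were then higher and 5 lower, beside 1373 of all genes higher and 1396 lower. With TMM those counts over all genes were 1608 and 1028.

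The estimates of the members leaned downward by small amounts. Of the 50 members, 39 had a log2 fold change below 0, 78% of them, where 52.3% of all genes tested were below 0. Their median was -0.06, against -0.01 over all genes tested, and they ran from -0.16 to 0.33. At an unadjusted p under 0.05 in edgeR, 5 of 50 members were higher, beside 15.2% of all genes tested, and 11 of 50 were lower, beside 13.2% of all genes tested. The 95% intervals were narrow, with a median half-width of 0.10 on the log2 scale. For the 44 members that did not pass, no interval reached below -0.28 or above 0.24, which bounds a change in either direction but does not show that the groups were alike.

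**Figure D1:**
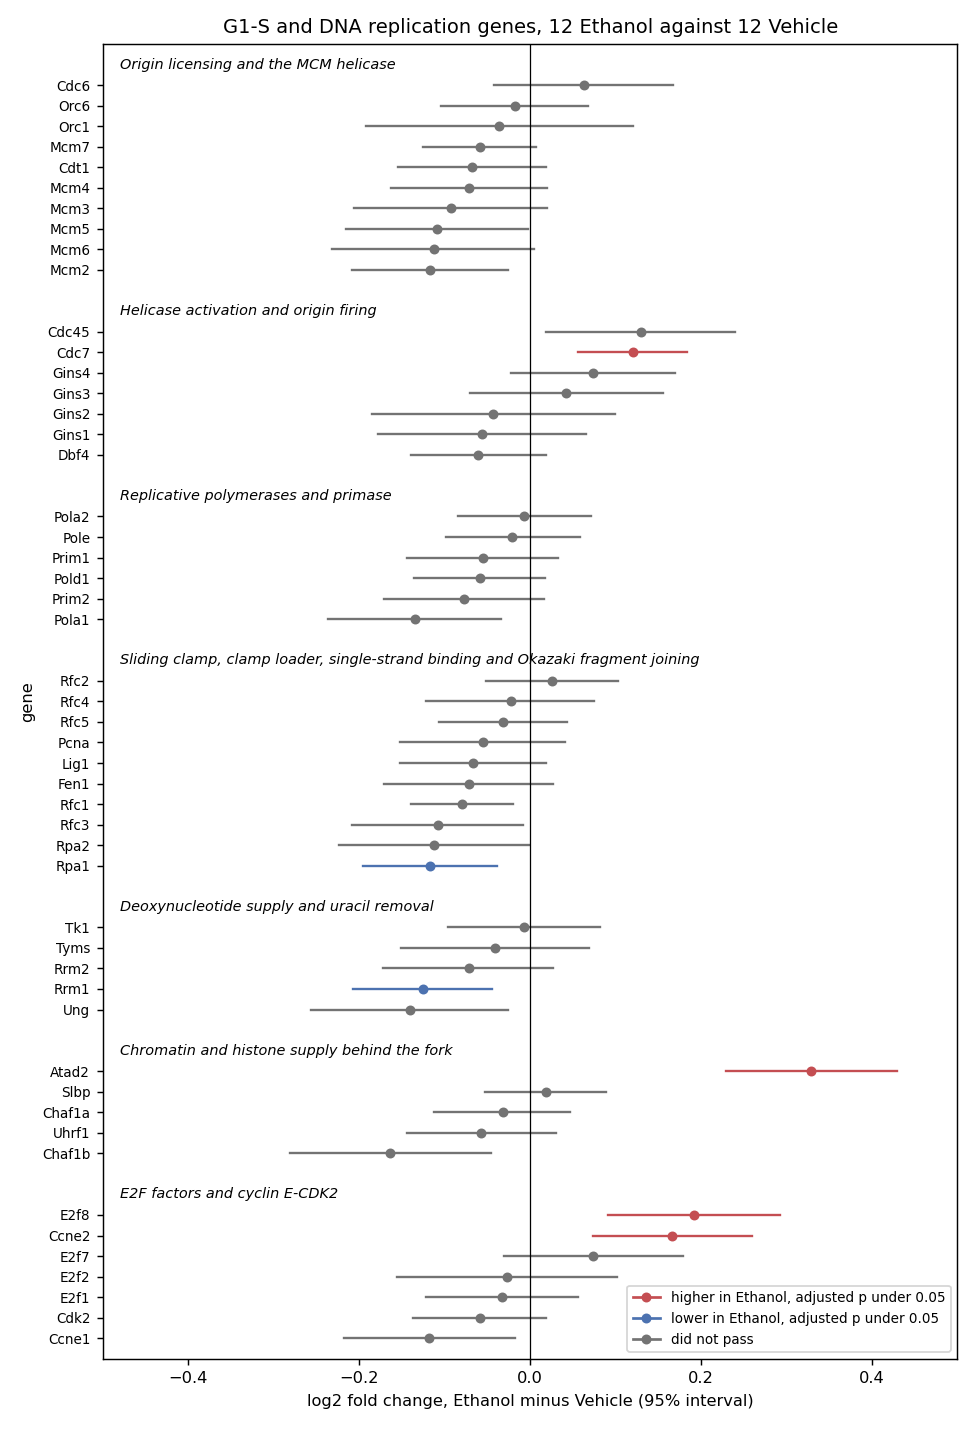
Log2 fold change of each of the 50 members, Ethanol minus Vehicle, with its 95% interval, grouped by role (n = 12 animals per group). The 4 genes that rose (red) and the 2 that fell (blue) stand among 44 that did not pass (grey), and 39 of the 50 points lie left of 0.

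To show what the members share at their start sites, RefSeq windows of 300 bases (250 before the start and 50 after, build GRCm38.p6, which is not the build of the deposited table) were searched for 3 motifs on both strands. The letters were TTTCGCGC, TTTGGCGC, TTTCCCGC and TTTGCCGC for E2F, TTTGAA for the CHR element of late cell cycle genes, and CCAAT for the box bound by NF-Y. An E2F match on 1 strand can overlap a match on the other. The table held windows for 41 members, and Mcm4, Gins1, Gins2, Gins4, Prim2, Pole, Rfc2, Atad2 and Ccne2 have none there. An E2F match stood in 16 of the 48 member windows, 33.3%, against 2.26% of all 32851 windows. CCAAT stood in 58.3% of member windows against 37.4% of all windows, and TTTGAA in 18.8% against 17.9%. Of the 16 genes with an E2F match, none passed edgeR's test in either direction, 3 were lower at an unadjusted p under 0.05 (Mcm5, Pola1 and Rfc3), and their median log2 fold change was -0.06. Of the 25 genes with a window and no E2F match, Cdc7 and E2f8 were higher and Rrm1 and Rpa1 lower, 3 were higher and 8 lower at an unadjusted p under 0.05, and the median was -0.06. Over all genes tested, 15.2% were higher and 13.2% lower at an unadjusted p under 0.05 in edgeR. After adjustment 9.07% were higher and 5.8% lower. Atad2 and Ccne2, both higher members, have no window and are in neither group. The difference between the groups of genes was not tested. A match is a run of letters, not a shown binding site, and only exact matches were counted.

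Shown here are the 120 bases before the start on the gene's own strand, written 5′ to 3′, with matches in capitals. The first 3 belong to genes that passed the test, E2f8 (chr7:48881597-48881716, minus strand), Rrm1 (chr7:102441575-102441694, plus strand) and Rpa1 (chr11:75348384-75348503, minus strand), and the other 3 to genes with E2F letters that did not pass, Mcm6 (chr1:128359706-128359825, minus strand), Orc1 (chr4:108579334-108579453, plus strand) and Gins3 (chr8:95633439-95633558, plus strand).
E2f8: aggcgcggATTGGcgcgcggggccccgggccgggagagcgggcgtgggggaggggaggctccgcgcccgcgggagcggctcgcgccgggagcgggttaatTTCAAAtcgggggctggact
Rrm1: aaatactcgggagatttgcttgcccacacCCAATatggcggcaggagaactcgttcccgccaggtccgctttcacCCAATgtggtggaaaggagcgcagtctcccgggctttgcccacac
Rpa1: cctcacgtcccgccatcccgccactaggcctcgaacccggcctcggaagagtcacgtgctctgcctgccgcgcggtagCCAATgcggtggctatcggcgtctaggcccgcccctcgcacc
Mcm6: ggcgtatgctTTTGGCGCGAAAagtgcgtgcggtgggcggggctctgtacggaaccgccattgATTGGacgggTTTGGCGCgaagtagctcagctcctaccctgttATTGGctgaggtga
Orc1: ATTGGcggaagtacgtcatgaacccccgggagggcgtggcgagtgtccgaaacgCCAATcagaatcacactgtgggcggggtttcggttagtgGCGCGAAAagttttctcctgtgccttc
Gins3: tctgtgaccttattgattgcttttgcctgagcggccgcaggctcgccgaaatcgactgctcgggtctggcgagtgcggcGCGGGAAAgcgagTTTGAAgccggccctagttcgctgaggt
In these windows the E2f8 stretch holds CCAAT on the reverse strand and, 20 bases before the start, TTTGAA on the reverse strand, the Rrm1 stretch holds CCAAT at 91 and 45 bases before the start, and the Rpa1 stretch holds it at 42 bases. The Rrm1 stretch also holds gttcccgc, which differs from the E2F letters TTTCCCGC only in its first base and was not counted. The Mcm6 stretch holds 3 E2F matches, of which the first 2 overlap, and Orc1 and Gins3 hold 1 each. Cdc7, the other gene with windows that passed the test, is not shown. Its stretches of 120 bases hold no match to any of the 3 motifs.

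Total counts ranged from 26982510 to 38804909 per Ethanol animal and from 29039869 to 38696572 per Vehicle animal, and levels are given as CPM, in which each count is divided by the TMM-scaled size of its library. CPM is not scaled for gene length, so levels are compared between animals and not between genes. Granule precursor, granule neuron and Purkinje markers were all detected. No other brain region was compared, so the cerebellar origin of the RNA was not tested. Of the 24 libraries, 4 hardly held the choroid plexus gene Ttr (Ethanol X4568 and X4766, Vehicle X4761 and X4770, 1.15 to 3.57 CPM against 322 to 5049 CPM in the other 20). In 18 of the 50 members, exons overlap another annotated gene on the opposite strand, and in Mcm7 and Rpa1 a gene on the same strand. The strand setting of the counting is not given in the sources used here, and without it reads of such neighbours cannot be told apart.

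Atad2 showed the largest fold change of the members. It stood at 39.3 to 56.3 CPM in Ethanol animals (median 47.1) and at 33.8 to 41.5 CPM in Vehicle animals (median 37.6). All 12 Ethanol animals lay above the Vehicle median and 10 of 12 above the highest Vehicle animal. Its mean was 47.6 ± 5.40 CPM in Ethanol and 37.8 ± 2.24 CPM in Vehicle animals (SD, n = 12 each), a 1.26-fold change (log2 fold change 0.33, SE 0.05, adjusted p = 7.03e-05 from edgeR). Within the 6 runs the log2 difference was above 0 in all 6, from 0.15 to 0.49.

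E2f8 and its paralog E2f7 encode atypical E2F proteins that repress E2F targets late in S phase. E2f8 ranged from 30.1 to 44.0 CPM in Ethanol animals (median 37.7) and from 30.2 to 37.4 CPM in Vehicle animals (median 33.1), so the groups overlapped, with 6 of 12 Ethanol animals above every Vehicle animal and 1 below every Vehicle animal. On the log2 scale E2f8 was higher by 0.19 (SE 0.05, edgeR adjusted p = 0.00879), and Ethanol was higher in 6 of 6 runs. E2f7 averaged 34.1 ± 4.08 CPM in Ethanol and 32.3 ± 1.70 CPM in Vehicle animals (SD, n = 12 each), a log2 fold change of 0.07 with an interval from -0.03 to 0.18. The activator genes E2f1 and E2f2 had estimates of -0.03 each (adjusted p = 0.677 and 0.828). Neighbouring Gm2788, whose exons overlap E2f8 on the other strand, was at 0.365 ± 0.139 CPM in Ethanol and 0.366 ± 0.103 CPM in Vehicle animals (SD, n = 12 each).

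The 2 cyclin E genes, whose proteins activate CDK2 at the G1-S boundary, had estimates of opposite sign. Ccne2 ranged from 16.7 to 22.8 CPM in Ethanol animals (median 19.4) and from 15.3 to 19.3 CPM in Vehicle animals (median 17.2). For Ccne2, 11 of 12 Ethanol animals were above the Vehicle median, and the log2 difference was 0.17 (SE 0.05, edgeR adjusted p = 0.0133). Ethanol was higher in 5 of 6 runs, and in the other the difference was -0.02. Ccne1 ranged from 16.3 to 22.4 CPM in Ethanol animals (median 18.1) and from 17.9 to 23.1 CPM in Vehicle animals (median 19.97), with 11 of 12 Ethanol animals below the Vehicle median. Its log2 fold change of -0.12 (SE 0.05) had p = 0.022 before and 0.102 after adjustment in edgeR. The log2 ratio of Ccne2 to Ccne1 within an animal was 0.06 ± 0.14 in Ethanol and -0.23 ± 0.15 in Vehicle animals (SD, n = 12 each), above the highest Vehicle animal in 8 of 12 Ethanol animals. This pair and the 4 others below were picked after their values were seen, so the ratios are given with no test. Cdk2, their kinase, had an estimate of -0.06 (SE 0.04, adjusted p = 0.326). Ccne2 lost its call without the 4 libraries low in Ttr (adjusted p = 0.0619), without run 2 (adjusted p = 0.0603) and without run 4 (adjusted p = 0.0538). Its exons overlap those of Ints8 on the other strand, and Ints8 had a log2 fold change of 0.06 (adjusted p = 0.287).

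Cdc7 ranged from 58.5 to 71.9 CPM in Ethanol animals (median 64.6) and from 53.3 to 63.1 CPM in Vehicle animals (median 59.4). For Cdc7, 8 of 12 Ethanol animals were above every Vehicle animal, and the log2 fold change was 0.12 (SE 0.03, adjusted p = 0.00955 from edgeR), above 0 in 6 of 6 runs. Dbf4, the subunit that activates the CDC7 kinase, did not pass at -0.06 (SE 0.04, adjusted p = 0.321). The log2 ratio of Cdc7 to Dbf4 was 0.52 ± 0.08 in Ethanol and 0.34 ± 0.10 in Vehicle animals (SD, n = 12 each), and 12 of 12 Ethanol animals were above the Vehicle median. Among the other firing factors, Cdc45, which forms the active helicase with MCM and GINS, had an estimate of 0.13 with p = 0.023 before and 0.105 after adjustment in edgeR. The 4 GINS genes ran from -0.06 to 0.07 and none passed in edgeR, with a lowest unadjusted p of 0.126.

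**Figure D2:**
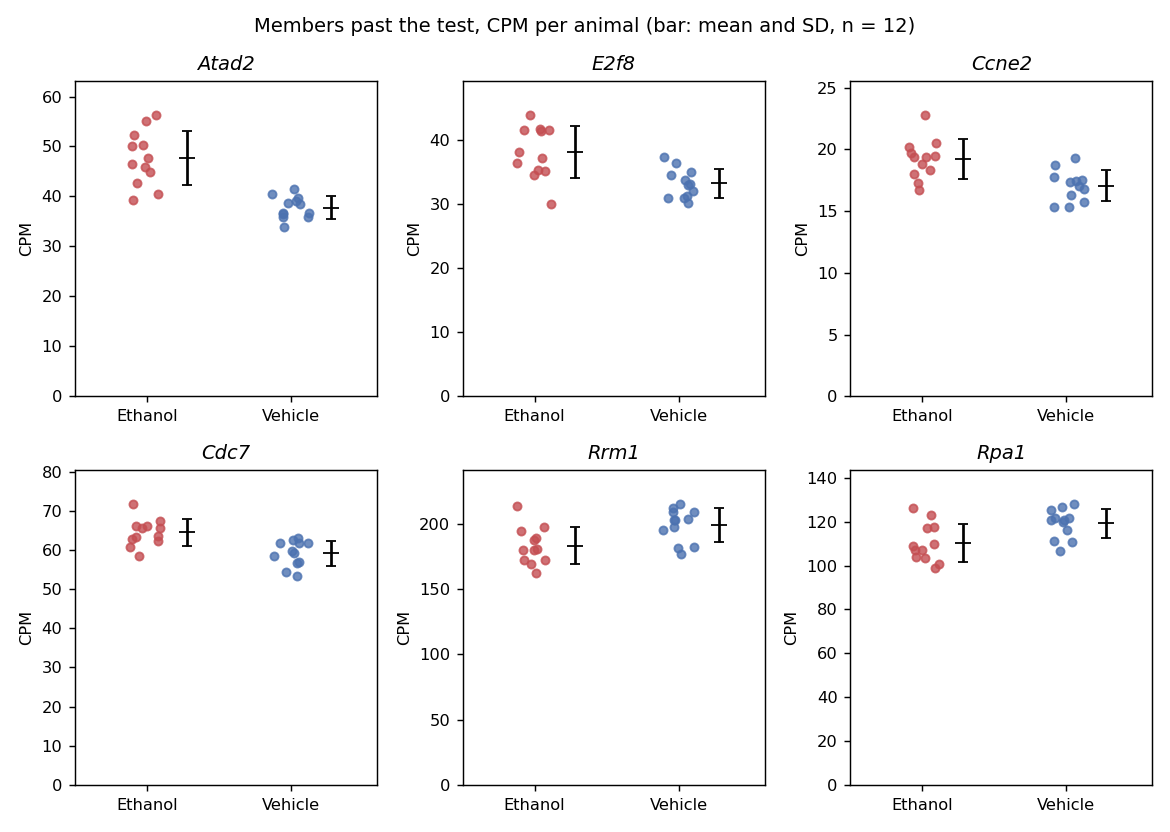
CPM per animal of the 6 members that passed the test, Ethanol left and Vehicle right, with mean and SD beside the points (n = 12 per group). Atad2 in 10 of 12 Ethanol animals and Cdc7 in 8 of 12 exceed the highest Vehicle animal, while Rrm1 and Rpa1 overlap widely, with 4 Ethanol animals each below the lowest Vehicle animal.

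Rrm1 ranged from 162 to 214 CPM in Ethanol animals (median 180) and from 177 to 216 CPM in Vehicle animals (median 203). It fell by 8.37% in Ethanol animals (log2 fold change -0.13, SE 0.04, adjusted p = 0.0305 from edgeR), and 11 of 12 Ethanol animals were below the Vehicle median. Rpa1 ranged from 99.0 to 126 CPM in Ethanol animals (median 108) and from 107 to 128 CPM in Vehicle animals (median 121). It fell by 7.79% (log2 fold change -0.12, SE 0.04, adjusted p = 0.0382 from edgeR), with 10 of 12 Ethanol animals below the Vehicle median. Its exons overlap those of Gm47300 on the same strand, which was not analysed here, so reads of the pair cannot be told apart. Rrm1 and Rpa1 were lower in 6 of 6 runs. Their partner subunits did not pass, Rrm2 at -0.07 (adjusted p = 0.35) and Rpa2 at -0.11 (adjusted p = 0.172). The log2 ratio of Rrm1 to Rrm2 was 0.58 ± 0.07 in Ethanol and 0.63 ± 0.05 in Vehicle animals, and that of Rpa1 to Rpa2 was 1.44 ± 0.10 in Ethanol and 1.44 ± 0.06 in Vehicle animals (SD, n = 12 each).

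These 2 calls sat near the threshold, and single animals moved them. Rrm1 kept its call in 18 of 24 fits that left out 1 animal (adjusted p from 0.00813 to 0.0677) and Rpa1 in 15 of 24 (0.0119 to 0.0765). The count of lower members was 0 without Vehicle X4685, Vehicle X4686, Ethanol X4692, Ethanol X4694 or Ethanol X4765, and 1 without Ethanol X4568, Ethanol X4569, Vehicle X4571, Vehicle X4679 or Vehicle X4761. It was 4 without Vehicle X4762, 5 without Ethanol X4683, 6 without Ethanol X4758 or Vehicle X4768 and 9 without Ethanol X4673. Over these 24 fits the count of lower genes among all genes tested also moved, from 805 to 1438, against 1028 with all animals. Without the 4 libraries low in Ttr neither gene passed (adjusted p = 0.1 for Rrm1 and 0.126 for Rpa1), and 3 members were higher. Atad2, E2f8, Ccne2 and Cdc7 passed in each of the 24 fits. With the run as a block, 7 members were lower, Rrm1 and Rpa1 together with Mcm2, Pola1, Chaf1b, Ung and Ccne1, and the same 4 were higher, beside 7.68% of all genes lower and 11.2% higher in that fit.

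**Figure D3:**
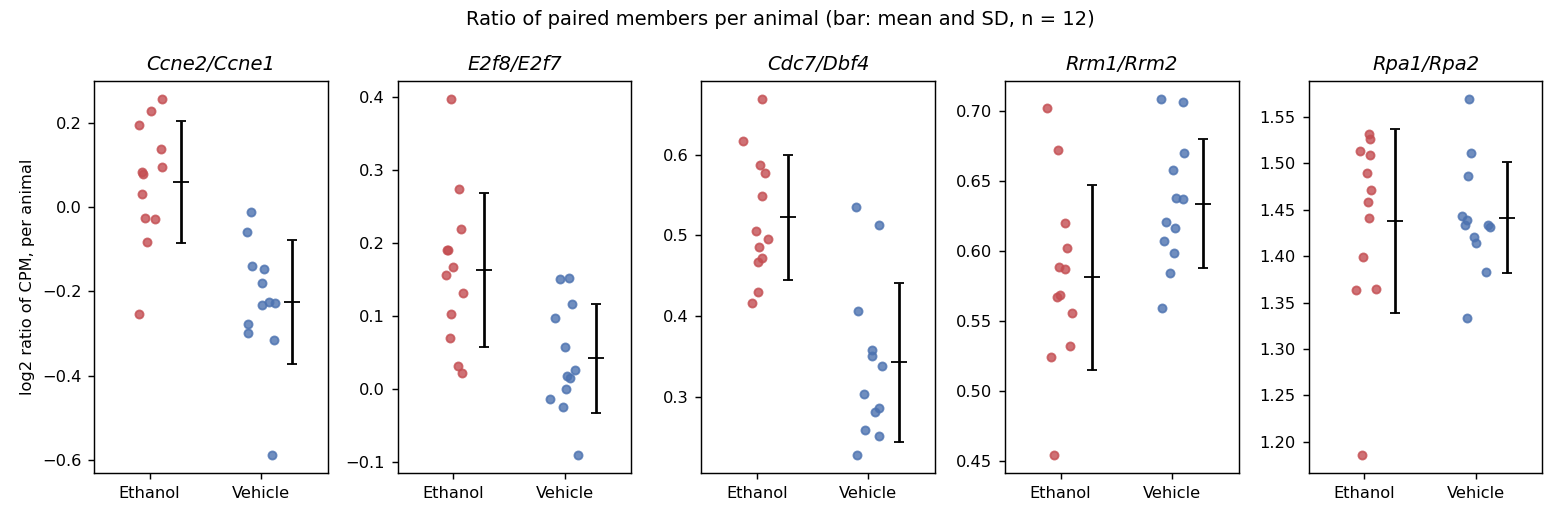
Log2 ratio of CPM within each animal for 5 pairs of members, Ethanol left and Vehicle right, with mean and SD (n = 12 per group, each panel on its own scale). The Ccne2 to Ccne1 and Cdc7 to Dbf4 ratios sit higher in Ethanol animals, and the Rpa1 to Rpa2 ratio has the same mean of 1.44 in both groups.

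Of 10 licensing genes, which load the helicase or form it, 9 had an estimate below 0, beside 52.3% of all genes tested. Their median was -0.07. None passed in edgeR, and 2, Mcm2 and Mcm5, were lower at an unadjusted p under 0.05, beside 13.2% of all genes tested. The 6 MCM subunit genes ran from -0.12 for Mcm2 to -0.06 for Mcm7. Mcm2 averaged 127 ± 12.01 CPM in Ethanol and 138 ± 8.73 CPM in Vehicle animals (SD, n = 12 each), was lower in 6 of 6 runs and had an adjusted p of 0.0733 in edgeR. Mcm5 had an estimate of -0.11 (adjusted p = 0.166). Cdc6, a loader of the ring, was the member above 0, at 0.06 (adjusted p = 0.454).

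The 6 polymerase and primase genes all had estimates below 0, beside 52.3% of all genes tested. None passed in edgeR, and 1 was lower at an unadjusted p under 0.05, beside 13.2% of all genes tested. Pola1, the catalytic subunit of the polymerase that starts each fragment, was the lowest, at 29.4 ± 2.97 CPM in Ethanol and 32.2 ± 2.27 CPM in Vehicle animals (SD, n = 12 each), with 11 of 12 Ethanol animals below the Vehicle median (log2 fold change -0.14, SE 0.05, adjusted p = 0.0634 from edgeR). Prim2, a primase subunit, had -0.08 (adjusted p = 0.274), and the other 4 ran from -0.06 to -0.01. Of the 10 fork genes, Rpa1 passed and 9 did not. At an unadjusted p under 0.05 in edgeR 4 were lower, Rpa1, Rfc1, Rfc3 and Rpa2, beside 13.2% of all genes tested. Rfc3 had -0.11 (adjusted p = 0.139 in edgeR), with 11 of 12 Ethanol animals below the Vehicle median. Rfc1, the large subunit of the clamp loader, had -0.08 (SE 0.03, adjusted p = 0.0634 from edgeR) with 11 of 12 Ethanol animals below the Vehicle median, and Pcna, the sliding clamp, had -0.06 (adjusted p = 0.477).

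Of the 5 genes of deoxynucleotide supply and uracil removal, Rrm1 passed and Ung, the uracil glycosylase, did not at -0.14 (SE 0.06, adjusted p = 0.0892 from edgeR). Tk1 and Tyms, which make thymidine nucleotides, had -0.01 and -0.04. Of the 5 chromatin genes, Atad2 passed. Chaf1b, a subunit of the assembly factor that deposits histones on new DNA, had the lowest estimate of all members at -0.16 (SE 0.06) and lay just outside the threshold with an adjusted p of 0.0522 in edgeR, at 31.5 ± 3.98 CPM in Ethanol and 35.1 ± 2.66 CPM in Vehicle animals (SD, n = 12 each). Chaf1a, Uhrf1 and Slbp ran from -0.06 to 0.02.

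The mean over the 50 members, with each gene's log2 CPM centred on its own mean, varied more between animals than between groups. It was -0.02 ± 0.10 in Ethanol and 0.02 ± 0.07 in Vehicle animals (SD, n = 12 each), a difference of -0.03 with a standard error of 0.04, and no test was run on this score. Ethanol animals ran from -0.20 to 0.16 (median -0.04) and Vehicle animals from -0.14 to 0.10 (median 0.04), so the ranges overlapped almost wholly, and 9 of 12 Ethanol animals lay below the Vehicle median. Ethanol was lower in 4 of 6 runs and higher in 2, with differences from -0.11 in run 1 to 0.04 in run 2.

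Within an animal the members moved together. In Ethanol X4758, 48 of 50 members were above their own mean over the 24 animals, and in Ethanol X4760 of the same run, 1 of 50 was. Vehicle X4762 and Vehicle X4768 had 1 and 2 of 50 above. All members of a library share its depth and its tissue piece. Of the 4 libraries low in Ttr, Ethanol X4568 had a mean of -0.04, Ethanol X4766 of 0.05, and Vehicle X4761 and X4770 of 0.07 each. Without these 4 the difference was -0.03, and their part in the spread between animals was not tested.

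**Figure D4:**
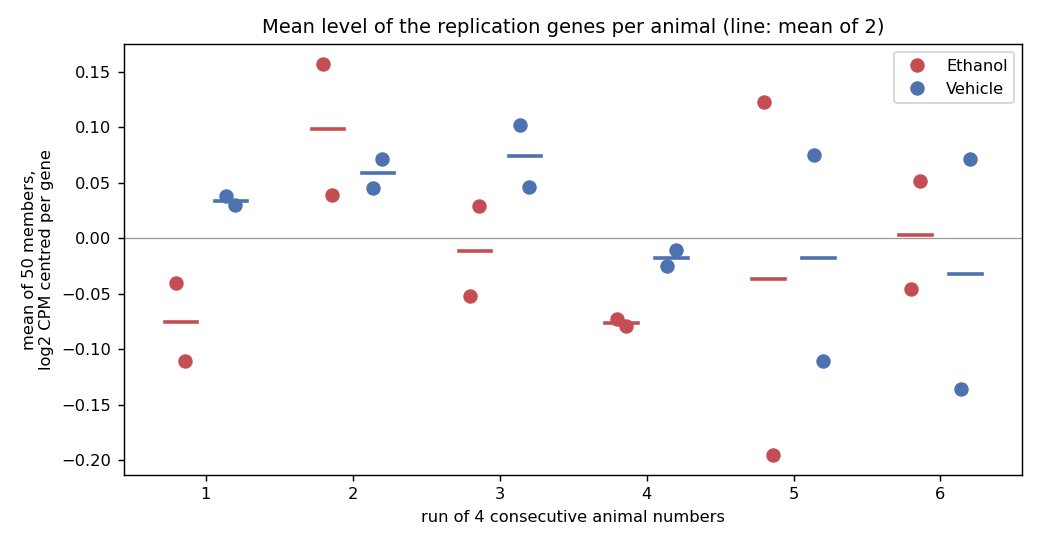
Mean of the 50 members per animal (log2 CPM, each gene centred on its mean over 24 animals) by run of animal numbers, Ethanol left and Vehicle right in each run, with a line at the mean of 2 animals. The animals span 0.35 on this scale, from -0.20 to 0.16, and the Ethanol mean is lower in 4 of the 6 runs.

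Markers of the dividing cells and of their neighbours were set beside these values. Over all genes tested, 9.07% passed as higher and 5.8% as lower. Summed CPM of 10 granule precursor markers ran from 2556 to 3164 in Ethanol (median 2944) and from 2713 to 3234 in Vehicle animals (median 2980), and 2 of these genes passed as higher and 1 as lower. The higher genes were Mycn, which passed in 24 of 24 fits with 1 animal left out, and Atoh1, the factor that specifies these cells, which passed in 4 of 24, and the lower one, Barhl1, passed in 10 of 24. Bergmann glia and astrocyte markers summed to a median of 4512 CPM in Ethanol and 4081 CPM in Vehicle animals, with 4 of 9 higher and 2 lower. Of the 9 estimates, 5 were above 0 and 4 below. Among the higher genes, Gfap averaged 648 CPM in Ethanol and 324 CPM in Vehicle animals, and Aqp4 630 and 492 CPM. Slc1a3 averaged 1428 and 1492 CPM and did not pass, and the lower genes were Gdf10 and Hopx. Endothelial markers summed to 360 to 413 CPM in Ethanol and 407 to 448 CPM in Vehicle animals, with 4 of 8 lower. Purkinje markers had a median sum of 1355 CPM in Ethanol and 1488 CPM in Vehicle animals, with 2 of 8 lower. Of the other cell types, 2 of 6 interneuron and progenitor markers, 2 of 7 oligodendrocyte precursor markers, 4 of 9 microglial markers and 2 of 10 granule neuron markers were higher, and 1 microglial marker was lower. With 1 animal left out, the higher interneuron markers numbered 1 to 3, the higher microglial markers 2 to 4 and the lower Purkinje markers 1 to 3. The part of these cell types in the changes of the replication genes was not tested.

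The upstream regulators of the G1-S step gave higher values in several cases. Of 11 G1 cyclins, kinases and activators, 4 rose in Ethanol animals, beside 9.07% of all genes tested, and the other 7 did not pass. Myc, a driver of proliferation, averaged 22.5 ± 2.61 CPM in Ethanol and 16.8 ± 1.57 CPM in Vehicle animals (SD, n = 12 each), 1.33-fold higher in Ethanol with an edgeR adjusted p of 4.29e-05. Mycn, its counterpart in granule precursors, had 0.26 (SE 0.05, adjusted p = 0.000281), Skp2, which targets the inhibitor p27 for degradation, had 0.21 (adjusted p = 0.00106), and Cdc25a, the phosphatase that activates CDK2, had 0.16 (adjusted p = 0.0058). The D cyclins Ccnd1 and Ccnd2 did not pass, at -0.13 (adjusted p = 0.408) and -0.05 (adjusted p = 0.237).

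Brakes of the same step were also higher in some cases. Of 18 tested, 5 were higher and 1 was lower, beside 9.07% and 5.8% of all genes tested, with a median of 0.06. Btg2, an antiproliferative gene, had 0.22 (SE 0.05, adjusted p = 0.00647), E2f6, a repressor E2F, had 0.15 (adjusted p = 0.00647), and Lin37, a subunit of the DREAM repressor complex, had 0.19 (adjusted p = 0.0141) from edgeR. Cdkn2c, which encodes the CDK4/6 inhibitor p18, was the lower gene at -0.16 (adjusted p = 0.0144). Cdkn1a, the p21 inhibitor, which is among the 5, had 0.19 (adjusted p = 0.0149). Of 20 p53 targets, which share Btg2 and Cdkn1a with that list, 8 were higher and 1 lower. Together these were 45% of the list, beside 14.9% of all genes. The other 11 did not pass, and the median over the 20 was 0.09. The higher genes with the smallest p were Sesn2, Eda2r and Fas, with log2 fold changes of 0.51, 0.35 and 1.00 (edgeR adjusted p = 9.97e-05, 0.000129 and 0.00118). Fas was barely detected, at 0.733 ± 0.288 CPM in Ethanol and 0.363 ± 0.118 CPM in Vehicle animals (SD, n = 12 each). Pmaip1, a pro-apoptotic gene and the lower one, had -0.26 (adjusted p = 0.0389) and passed in 14 of 24 fits that left out 1 animal. E2f6, Lin37, Cdkn1a and Cdkn2c each lost their call when at least 1 of the 6 runs was left out.

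A further 55 genes outside the 50, mostly of replication, had a median of -0.02. Of these 5 were higher and 5 lower, 18.2% of them beside 14.9% of all genes. Cdc25a, also counted among the G1 activators above, was among the 5 higher, and the cyclin gene Ccna2 was among the 5 lower. The count of lower genes was 10 without Ethanol X4673 and 8 without Vehicle X4768. Donson, a fork protection factor, had 0.18 (SE 0.04, adjusted p = 0.000995), and Polh, a polymerase that copies past damaged bases, had 0.20 (adjusted p = 0.00701). Mcm9, an MCM relative outside the replicative ring, had -0.15 (SE 0.03, adjusted p = 0.00452) with 12 of 12 Ethanol animals below the Vehicle median, and Dscc1, a subunit of an alternative clamp loader, had -0.27 (adjusted p = 0.0116). All are from edgeR, and Dscc1 lost its call when at least 1 run was left out.

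The genes of G2 and mitosis had a similar median to the replication genes, -0.05 over 40 genes, with 1 higher and 7 lower. Over all genes tested, 9.07% were higher and 5.8% lower. Ccnb2, a mitotic cyclin, fell to 39.2 ± 3.93 CPM in Ethanol animals, against 45.9 ± 3.63 CPM in Vehicle animals (SD, n = 12 each), or -0.24 on the log2 scale with an edgeR adjusted p of 0.00226. Bub1b, of the spindle checkpoint, had -0.17 (adjusted p = 0.0081) and Tpx2, a spindle assembly factor, -0.12 (adjusted p = 0.0117), a call that held in 3 of 6 fits with a run left out. The count of 7 lower genes ran from 4 to 10 over the 24 animals left out and from 2 to 8 over the 6 runs left out. It was 4 without Ethanol X4692, X4694 or X4760 or without Vehicle X4677, X4679, X4761 or X4770, and Bub1, Cdca3 and Cdc25b passed in 13, 10 and 7 of the 24 fits. Ccnf, a cyclin F-box protein, was the higher gene at 0.33 (adjusted p = 0.00617). The difference between this list and the 50 members was not tested. Of 15 Sonic hedgehog pathway genes, 3 were higher, Mycn and Shh among them, beside 9.07% of all genes tested. Gli1, the pathway's main readout, had 0.01 (adjusted p = 0.934 in edgeR).

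**Figure D5:**
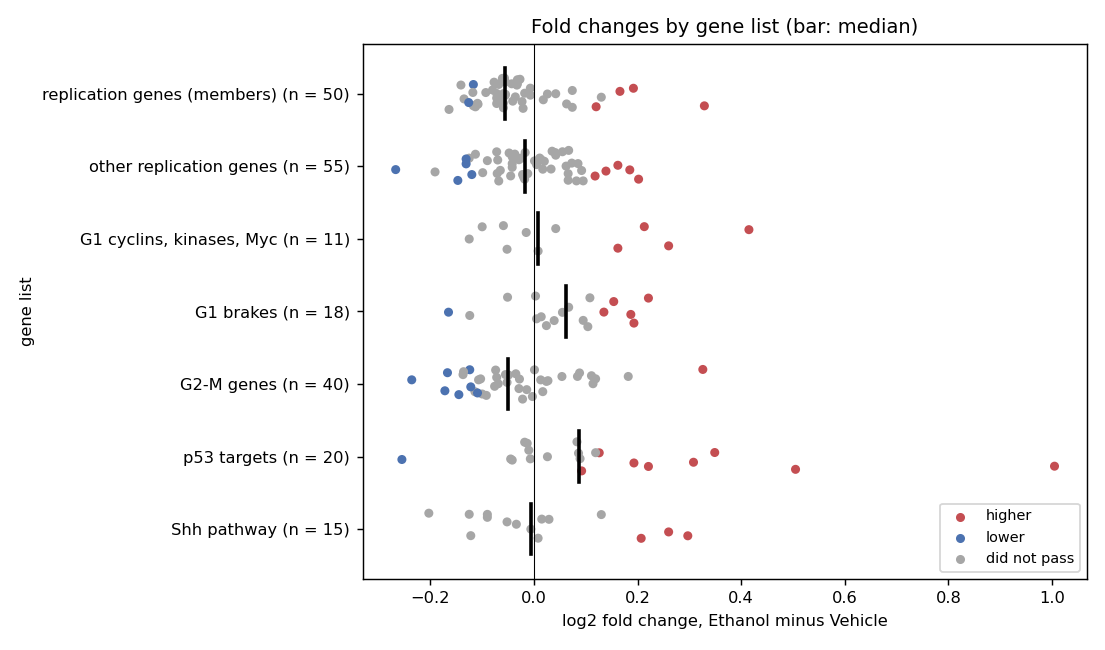
Log2 fold change, Ethanol minus Vehicle, of each tested gene in the 50 members and in 6 other lists (points, spread vertically for visibility), with a bar at each list's median. The members and the G2-M genes have medians of -0.06 and -0.05. The p53 targets reach 1.00 (Fas, at a mean of only 0.73 CPM in Ethanol and 0.36 CPM in Vehicle animals).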

How the data were processed

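Polyadenylated RNA was sequenced paired-end from 24 cerebella. The deposited table holds estimated counts for each gene that the authors produced with nf-core/rnaseq 3.4. Names in the submitters' processing notes are STAR, Salmon, limma and GRCm39, without versions. Annotation release and strand setting: not given in the sources used here. Since 10.92% of values lie more than 0.01 from an integer, all were rounded. Genes were filtered with filterByExpr, scaled by TMM and fitted in edgeR 4.0.16 under R 4.3.3 (robust glmQLFit, then glmQLFTest). Standard errors came from the F statistic. The procedure was tested on simulated counts. Summaries used Python 3.11.15 with pandas 2.3.3, and plots matplotlib 3.10.9.

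The members and lists were chosen with earlier results of these data known. Named genes were all members past the test, the 2 smallest p-values in each of 7 roles and up to 3 per direction in each list, and others were added after their values were seen. Some genes that this rule names are not reported here. Of 20 G1 brakes, Cdkn2a was too low to test and Lin54 was not analysed here. P-values measure the spread between the sampled animals, with litter, sex and day unmodelled. Alternatives were other scaling factors, filters and tests (DESeq2 1.42.0, limma 3.58.1), the run as a block, and leaving out animals, runs or the libraries with little Ttr (a log2 CPM below 4).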

Additional observations from a re-analysis of the deposited data

How the results depend on the processing

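Animals could not be paired by litter, because the labels do not give the litter. No source used here ties the runs of 4 animal numbers, each with 2 of either group, to a litter or a day. A fit with the run as a block was made as an alternative. The 4 higher members were 4 with RLE and upper-quartile factors, DESeq2, limma-trend, limma-voom, no filter, a filter of 1 CPM in 12 libraries and the block, 3 without the libraries low in Ttr, 3 to 4 over the 6 runs left out and 4 to 5 over the 24 animals left out. The 2 lower members were 5 with upper-quartile factors (beside 1396 of all genes), 0 with no filter, 7 with the block (beside 1363 of all genes) and 0 without the libraries low in Ttr. They were 0 without runs 1, 3 or 4, 5 without run 2 (beside 915 of all genes), and 0 to 9 over the animals left out. DESeq2, limma-trend and limma-voom gave 3 each, with Chaf1b as the third. The mean over members differed by -0.05 to -0.02 over the animals and runs left out and by -0.05 to -0.03 under the other settings. Of all genes, 1608 higher and 1028 lower became 1268 to 1818 and 805 to 1438 over the animals left out. Lower genes numbered 662 when no filter was used, 612 when the libraries low in Ttr were left out, 616 without run 1, 612 without run 3 and 499 without run 4. No named gene that had passed changed direction under an alternative. The cause of these shifts was not tested. Fold changes of the members were small, and the spread between 12 animals of a group limits what can be called.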
